A study of Rattus norvegicus with 16 samples.

Results

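Voltage-gated ion channels and their relatives were described in 2 skeletal muscles of the rat, in fibre and at the neuromuscular junction. Members were all genes whose symbol starts with Scn followed by a digit, with Cacn or with Kcn, so the set holds sodium channels, voltage-gated calcium channels and potassium channels with their accessory subunits. The names bring in relatives that are not opened by voltage, among them the inward rectifiers (Kcnj), the 2-pore-domain leak channels (Kcnk) and most calcium-activated channels (Kcnn). By this rule 111 of 14217 named genes were members, covered by 178 of 20826 probe sets annotated to 1 gene. The probe set with the highest mean level stood for each gene. A gene was tested when that probe set lay above the median of its array on at least 4 of the 16 arrays, which 56 members did and 55 did not.

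Both muscles were taken from 4 rats killed with CO2: the rectus muscles of the orbit (extraocular muscle, EOM) and, from the leg, tibialis anterior (TA). Strain, sex and age are not given in the sources used here, and no rat had a treatment or an engineered allele according to the labels. Sections of 10 µm were stained for acetylcholinesterase, an enzyme of the synaptic cleft, and about 1000 stained junctions (synapse groups) and a like amount of non-synaptic muscle (fiber groups) were cut out of each muscle by laser. The 4 groups, EOM_fiber, EOM_synapse, TA_fiber and TA_synapse, each held 4 arrays, with rats numbered 15, 25, 27 and 29. A captured region holds every cell that lies in it, so that fewer cells of a type and less RNA per cell cannot be told apart. Levels below are quantile-normalised log2(intensity + 16), on which an unlit probe set reads about 4, and no level of one gene is set against that of another. Lists of 4 values follow the order of rats 15, 25, 27 and 29. Differences are log2 values ± standard error (SE) from limma with a term for the rat, n = 4 arrays per group, and a gene passed the test at a Benjamini-Hochberg adjusted p under 0.05 over 10405 genes. Differences of dim genes are understated on this scale. Except where another number is given, all 4 rats had the direction of a difference that passed.

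The stain separated the groups, and the arrays showed other cell types moving with it. All 7 tested genes of junctional muscle nuclei, such as the acetylcholine receptor subunit Chrne (6.36 ± 0.32 in EOM, adjusted p = 1.06e-07; 6.03 ± 0.32 in TA, adjusted p = 4.75e-08), were higher at both junctions. All 5 tested Schwann cell genes, led by S100b (2.90 ± 0.32) and Mbp (2.83 ± 0.36) in EOM and by Mbp (3.09 ± 0.36) and Pmp22 (3.03 ± 0.23) in TA, were higher there too. The summed intensity of the 5 ran from 1646 to 2511 in EOM_fiber, 7025 to 13666 in EOM_synapse, 332 to 688 in TA_fiber and 3032 to 5073 in TA_synapse. Of 10 neuron and axon genes, only Nefm and Gap43 were tested, and Chat, Slc18a3 and Nefl lay above the median on 0 arrays. Nefm and Gap43 were higher in EOM than TA both in fibre (2.73 ± 0.37 and 1.65 ± 0.23) and at the junction (1.42 ± 0.37 and 0.76 ± 0.23), and Gap43 rose at the junction in TA (1.33 ± 0.23). Neither passed between junction and fibre in EOM, with a list median of -0.01. The 5 fibroblast genes were all higher in EOM_fiber than in TA_fiber, by 2.57 ± 0.29 for Lum and 1.84 ± 0.28 for Dcn, and 3 of 5 in EOM and 5 of 5 in TA were higher at the junction. Array medians ran from 33.3 to 56.9 intensity units before normalisation.

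Skeletal muscle fibres carry an action potential along their membrane. Voltage-gated sodium channels start it and are concentrated at the junction, potassium channels end it, and the calcium channel built around Cacna1s acts as the voltage sensor that releases calcium from the sarcoplasmic reticulum. Nerve terminals, axons, Schwann cells and vessel walls have channels of their own. Genes read by nuclei under the junction often carry an N-box, a short element bound by ETS-family factors, or an E-box, the element bound by myogenic factors such as MyoD, upstream of their start.

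Upstream sequence is shown for 3 members with different junction patterns, Scn4b (higher at both junctions), Kcnip3 (at the EOM junction) and Cacna2d3 (at the TA junction). The Scn4b calls depended on the scaling of the arrays, as given below. The 250 bases before each gene's start are from RefSeq on build GRCr8, 5′ to 3′ on the gene's strand, with N-box letters (CCGGAA) and E-box letters (CANNTG) on either strand in capitals. The Scn4b window is chr8:54343623-54343872 on the plus strand, the Kcnip3 window chr3:135195411-135195660 on the minus strand and the Cacna2d3 window chr16:4918900-4919149 on the minus strand.
Scn4b: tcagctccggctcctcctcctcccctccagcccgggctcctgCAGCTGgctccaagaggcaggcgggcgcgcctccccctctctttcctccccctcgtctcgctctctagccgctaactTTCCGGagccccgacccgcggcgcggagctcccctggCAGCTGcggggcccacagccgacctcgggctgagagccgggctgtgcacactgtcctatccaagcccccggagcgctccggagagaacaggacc
Kcnip3: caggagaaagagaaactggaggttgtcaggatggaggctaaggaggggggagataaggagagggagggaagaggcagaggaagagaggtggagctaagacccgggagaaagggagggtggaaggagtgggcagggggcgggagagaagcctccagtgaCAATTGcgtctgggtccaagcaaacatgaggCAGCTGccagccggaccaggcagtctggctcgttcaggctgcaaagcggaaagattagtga
Cacna2d3: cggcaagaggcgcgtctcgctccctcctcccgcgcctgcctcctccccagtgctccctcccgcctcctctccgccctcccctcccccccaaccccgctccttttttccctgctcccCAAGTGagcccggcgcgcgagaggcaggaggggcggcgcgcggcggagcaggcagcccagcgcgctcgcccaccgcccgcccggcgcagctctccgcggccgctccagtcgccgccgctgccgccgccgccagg

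Scn4b held N-box letters from 131 to 126 bases before its start and E-box letters at 208 to 203 and 94 to 89. Kcnip3 had E-box letters at 92 to 87 and 61 to 56, and Cacna2d3 at 134 to 129, with no N-box letters in either window. A promoter was listed for 78 of the 111 members. N-box letters were in 5 of the 78 (6.41%) and in 12.6% of all 33469 listed promoters, and E-box letters in 61.54% of the members and 65.54% of all. Of 11 members higher at a junction, 8 had a listed promoter, 1 of them (Scn4b) with N-box and 7 with E-box letters. Scn7a and Kcna2, also higher at both junctions, had E-box but no N-box letters. These matches describe letters in the window and no binding.

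Junction and fibre differed for 13 of 56 tested members in EOM (8 higher, 5 lower) and for 8 in TA (7 higher, 1 lower). Over all genes tested, 10.2% passed in EOM (5.63% higher, 4.54% lower) and 10.3% in TA (6.71% higher, 3.55% lower). The EOM split over all genes, 586 higher and 472 lower, moved to 547 higher of 691 on median-centred values, where the median of all genes shifted from -0.04 to 0.08. The members' median difference was -0.23 in EOM and -0.09 in TA, beside -0.04 and -0.01 over all genes. Scn7a, Scn4b, Kcna2 and Kcnj12 were higher at both junctions, and 0 members passed as lower at both. The junction difference itself differed between the muscles for 3 members: Kcnip3 and Scn3b, more positive in EOM, and Cacna2d3, more negative. Of all genes 0.923% passed that test, 0.259% positive and 0.663% negative. Absence of overlap between 2 groups, given for single genes below, was common. It held for 17.1% of all genes tested at the EOM junction and 13.2% at the TA junction. Between EOM and TA it held for 16.4% in fibre and 22.8% at the junction. A member can enter the test through the group where it is high, as Scn1a, Scn2a and Kcnip3 did, so counts over the tested members are a description and not support.

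**Figure D1:**
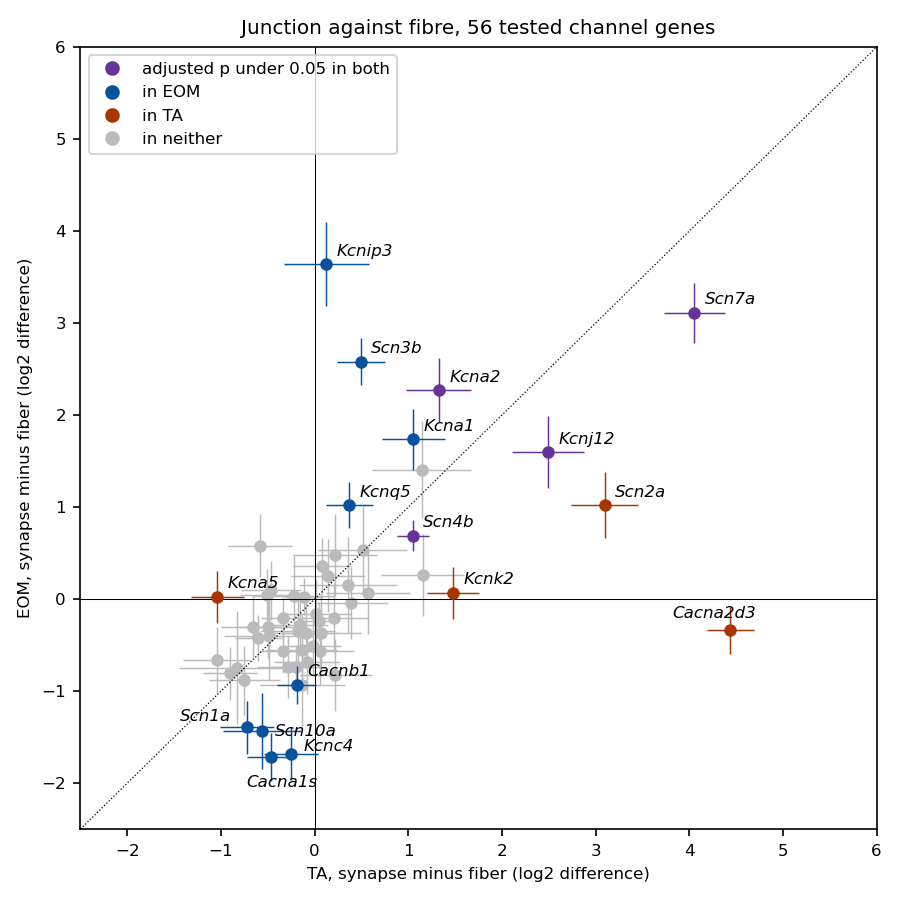
Junction minus fibre in TA (x axis) against the same difference in EOM (y axis), both as log2 differences with SE bars, for the 56 tested channel genes. Points on the dotted line differ equally in both muscles. Scn7a, Scn4b, Kcna2 and Kcnj12 passed in both, Kcnip3 and Scn3b lie high on the EOM axis near 0 in TA, and Cacna2d3 lies far out on the TA axis at -0.34 in EOM.

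Among sodium channel pore-forming subunits (5 of 9 tested), Scn7a had the steepest junction pattern. It encodes an atypical sodium channel that does not open with voltage like its relatives and is known from Schwann cells and other glia. Its levels were 8.78, 9.27, 9.59 and 9.70 in EOM_fiber and 12.58, 12.76, 12.01 and 12.44 in EOM_synapse. In TA_fiber they were 6.22, 5.51, 6.96 and 7.46, and in TA_synapse 10.31, 10.58, 10.94 and 10.55. No 2 groups overlapped, with the order EOM_synapse, TA_synapse, EOM_fiber, TA_fiber from the top. The junction was higher by 3.11 ± 0.33 in EOM (8.64-fold, adjusted p = 5.16e-05) and by 4.06 ± 0.33 in TA (16.6-fold, adjusted p = 2.33e-06). EOM exceeded TA by 2.80 ± 0.33 in fibre (adjusted p = 9.11e-05) and by 1.86 ± 0.33 at the junction (adjusted p = 0.00166). The junction differences of the muscles differed by -0.94 ± 0.46, which did not pass (adjusted p = 0.494). The summed Schwann cell intensity given above has the same order of groups. The summed intensity of the junctional nucleus genes has it too. It ran from 13451 to 14803 in EOM_synapse, 8743 to 12329 in TA_synapse, 830 to 1387 in EOM_fiber and 144 to 271 in TA_fiber. The fibroblast sum follows the order in its lowest and highest arrays, with overlap between groups. The part of these cell types in the Scn7a result was not tested.

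Scn2a, a pore-forming subunit best known from axons of the central nervous system, was highest in TA_synapse. It read 7.88, 7.88, 8.29 and 7.11 there, against 4.65, 4.32, 5.60 and 4.22 in TA_fiber. In EOM_fiber it read 5.70, 5.20, 4.27 and 4.39, and in EOM_synapse 5.58, 6.03, 5.84 and 6.20. TA_synapse lay above every other array, and all 4 TA_synapse arrays but only 2 EOM_synapse arrays and 0 fibre arrays exceeded their median. Without the TA_synapse group Scn2a would not have been tested. The junction difference was 3.09 ± 0.36 in TA (8.54-fold, adjusted p = 6.5e-05) and 1.02 ± 0.36 in EOM, which did not pass (adjusted p = 0.0887). EOM_synapse was below TA_synapse by -1.88 ± 0.36 (adjusted p = 0.00267), a call lost with a pseudocount of 1 (adjusted p = 0.0641). The test of the difference between the muscles gave -2.07 ± 0.50 and did not pass (adjusted p = 0.0817), though it did without EOM_fiber 27 or TA_fiber 27 (adjusted p = 0.0336 and 0.0376). With a pseudocount of 64 the TA junction difference was 1.85 and the difference between the muscles passed (adjusted p = 0.00559).

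Scn1a and Scn10a, subunits known from central and from sensory neurons, were lower at the EOM junction than in EOM fibre. Scn1a read 6.27, 6.34, 6.25 and 6.51 in EOM_fiber and 5.59, 4.91, 5.18 and 4.12 in EOM_synapse, with no overlap. In TA_fiber it read 5.42, 4.17, 5.35 and 5.39 and in TA_synapse 4.76, 4.15, 4.20 and 4.33. Only the 4 EOM_fiber arrays were above their median, and it was tested through that group alone. The differences were -1.39 ± 0.29 between EOM junction and fibre (adjusted p = 0.00818) and 1.26 ± 0.29 between EOM and TA fibre (adjusted p = 0.00982). With a pseudocount of 1 neither passed (adjusted p = 0.0796 and 0.0908), and the first was lost without rat 29 (0.0608) and the second without rat 25 (0.0785). Scn10a fell by 1.44 ± 0.41 at the EOM junction (adjusted p = 0.0415), a call lost on leaving out any of EOM_fiber 15, EOM_fiber 25, EOM_fiber 29, EOM_synapse 15, EOM_synapse 27, EOM_synapse 29 (adjusted p 0.0913 to 0.14). It was also lost with no filter (0.0615) and with a pseudocount of 1 (-2.49, adjusted p = 0.0709), and the difference was -0.69 with a pseudocount of 64. Scn3a, the remaining tested subunit, differed by at most 0.26 in size in any comparison of 2 groups and passed in none.

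The principal pore-forming subunit of adult muscle, Scn4a, could not be followed. Its probe set exceeded the array median on 2 arrays, TA_fiber 25 at 6.39 and TA_synapse 15 at 5.95, and read from 4.12 to 5.51 on the other 14. Scn8a, Scn9a and Scn11a exceeded the median on 1 array each.

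The 3 sodium channel beta subunits among the members, auxiliary proteins that change the gating and placing of the pore, were all tested. Scn3b was highest at the EOM junction, at 9.43, 8.53, 9.71 and 9.02. It read 7.00, 6.55, 6.12 and 6.70 in EOM_fiber, 7.25, 6.60, 6.91 and 6.65 in TA_fiber and 7.29, 6.84, 8.02 and 7.23 in TA_synapse. Every EOM_synapse array lay above all 12 others. The difference was 2.58 ± 0.26 at the EOM junction (5.98-fold, adjusted p = 3.25e-05) and 0.49 ± 0.26 at the TA junction (adjusted p = 0.278, all 4 rats above 0). EOM_synapse exceeded TA_synapse by 1.83 ± 0.26 (adjusted p = 0.000325). The muscles' junction differences differed by 2.09 ± 0.37 (adjusted p = 0.0137), a call kept without any single array but lost without rat 15, 25 or 29 (adjusted p = 0.131, 0.0772 and 0.104). A second Scn3b probe set gave 2.14 in EOM and 0.74 in TA.

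Scn4b, the beta subunit that permits resurgent sodium current in fast-firing cells, was bright on every array. It read 14.32, 14.44, 14.14 and 14.14 in EOM_fiber, 15.02, 15.15, 14.83 and 14.79 in EOM_synapse, 13.55, 14.20, 13.55 and 13.21 in TA_fiber and 14.83, 14.83, 14.59 and 14.44 in TA_synapse. Junction arrays lay above fibre arrays in both muscles without overlap, by 0.69 ± 0.17 in EOM (adjusted p = 0.0204) and 1.05 ± 0.17 in TA (adjusted p = 0.00118). EOM_fiber exceeded TA_fiber by 0.63 ± 0.17 (adjusted p = 0.0219). All of these depended on the scaling of the arrays. On the values as deposited they were 0.19, 0.56 and 0.24, and on median-centred values 0.31, 0.52 and 0.09, and none passed (adjusted p 0.153 to 0.846). The EOM junction call was also lost on leaving out any of EOM_fiber 25, EOM_fiber 27, EOM_synapse 15, EOM_synapse 27, EOM_synapse 29 (adjusted p 0.0527 to 0.0713) and the fibre call without EOM_fiber 27 or 29 or TA_fiber 15, 27 or 29 (0.052 to 0.0776). Without the rat term both were lost (adjusted p = 0.055 and 0.0576). Scn2b passed in no comparison, with 0.48 at the EOM and 0.22 at the TA junction.

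**Figure D2:**
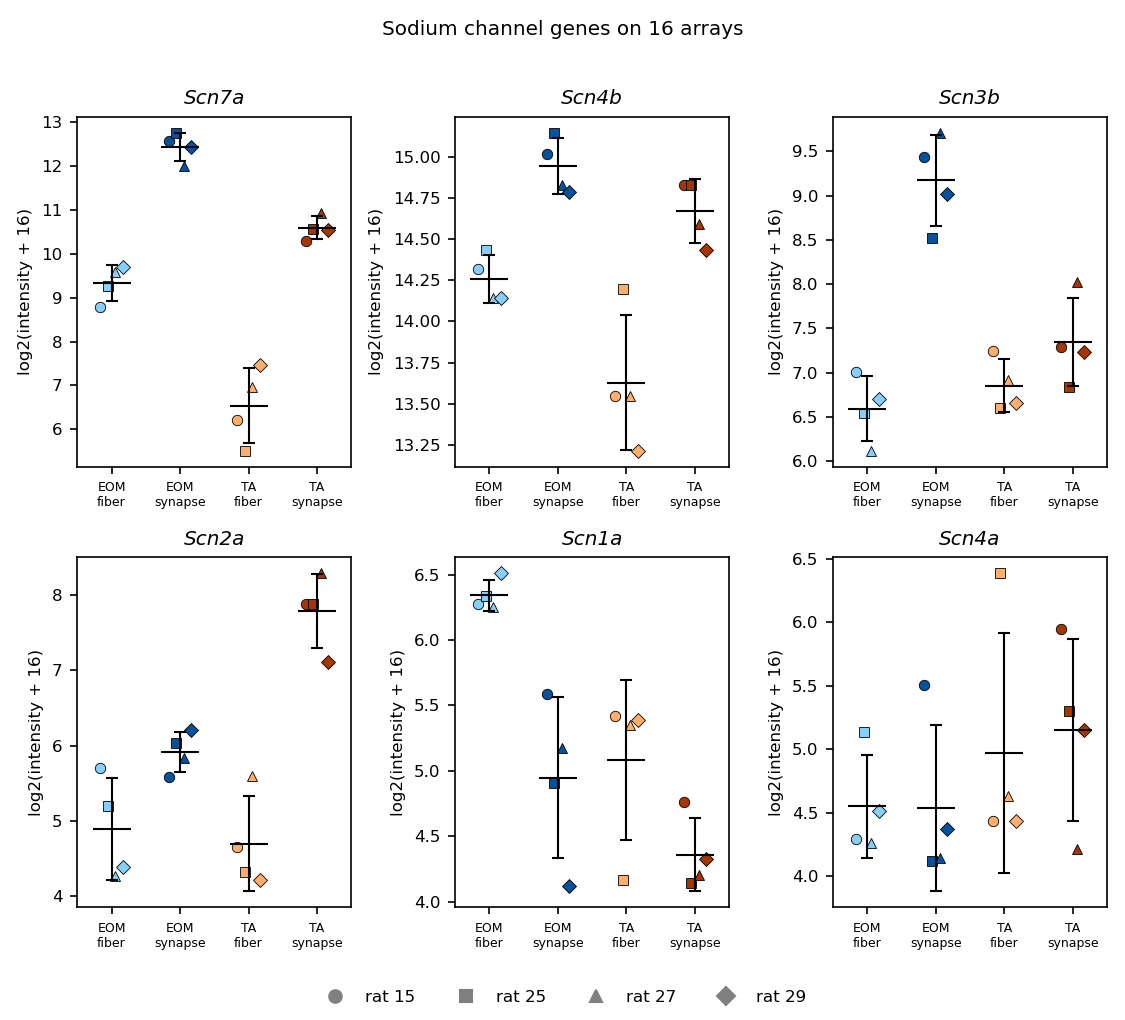
Levels of 6 sodium channel genes as log2(intensity + 16) on the 16 arrays, by group, with the mean and SD (n = 4) as black bars and a symbol for each rat. Each panel has its own y axis. Scn7a is high at both junctions, Scn3b at 8.53 to 9.71 stands out in EOM_synapse and Scn2a at 7.11 to 8.29 in TA_synapse, while Scn4a stays at 6.39 or below.

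Among calcium channel genes, the pore-forming Cacna1s and its beta subunit Cacnb1 were lower at the EOM junction, and the alpha2-delta subunit Cacna2d3 was far higher at the TA junction. Alpha2-delta subunits lie outside the membrane and carry the channel to the surface, and Cacna2d3 is known mainly from neurons. It read 10.10, 9.72, 9.66 and 10.09 in TA_synapse against 6.06, 5.57, 4.39 and 5.79 in TA_fiber. In EOM_fiber it read 7.40, 7.85, 6.93 and 7.21, and in EOM_synapse 7.51, 7.17, 6.70 and 6.65. TA_synapse lay above all others and TA_fiber below all others, with both EOM groups overlapping between them. The junction difference was 4.44 ± 0.25 in TA (21.7-fold, adjusted p = 8.4e-08) and -0.34 ± 0.25 in EOM (adjusted p = 0.444). The difference between these was -4.78 ± 0.36 (adjusted p = 1.71e-05). EOM exceeded TA in fibre by 1.90 ± 0.25 (adjusted p = 0.000256) and fell below it at the junction by -2.88 ± 0.25 (adjusted p = 5.93e-06). Each of these 4 calls held under all alternatives run, with the fibre difference at 1.17 for a pseudocount of 64.

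Cacna2d1, the alpha2-delta subunit of the muscle channel, did not show this pattern. Its levels, 9.35 to 10.82 in EOM_fiber, 9.24 to 10.01 in EOM_synapse, 9.44 to 10.72 in TA_fiber and 9.74 to 10.45 in TA_synapse, overlapped in every pair of groups, and it passed in none. The TA junction difference was 0.04 for Cacna2d1, and its difference between the muscles was -0.28.

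Cacna1s read 9.11, 10.20, 10.05 and 10.11 in EOM_fiber and 7.87, 8.20, 8.10 and 8.41 in EOM_synapse. In TA_fiber it read 10.21, 10.23, 9.95 and 9.78 and in TA_synapse 9.40, 9.55, 9.06 and 10.30. The EOM_synapse arrays lay below all 12 others, which overlapped. The junction difference was -1.72 ± 0.26 in EOM (adjusted p = 0.000919) and -0.46 ± 0.26 in TA (adjusted p = 0.319, 3 of 4 rats). EOM_synapse was below TA_synapse by -1.44 ± 0.26 (adjusted p = 0.00201). The difference between the muscles, -1.26 ± 0.37, did not pass (adjusted p = 0.158) and did with a mean-variance trend in the fit (adjusted p = 0.0413).

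Cacnb1, the beta subunit that binds Cacna1s, read 9.63, 9.45, 8.40 and 9.26 in EOM_fiber and 8.49, 8.50, 7.70 and 8.33 in EOM_synapse. It read 9.67, 9.49, 9.02 and 9.65 in TA_fiber and 9.34, 8.98, 9.23 and 9.52 in TA_synapse. EOM groups overlapped through EOM_fiber 27, and each rat was lower at the junction. The differences were -0.93 ± 0.21 at the EOM junction (adjusted p = 0.0116) and -1.01 ± 0.21 between the junctions of EOM and TA (adjusted p = 0.00439). The TA junction difference was -0.19 ± 0.21 (adjusted p = 0.64). The first was lost on median-centred values (adjusted p = 0.0978) and without rat 15 or 29 (0.0918 and 0.0774), and the second without rat 29 (0.0536). A second Cacnb1 probe set gave -1.54 at the EOM junction.

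Of the gamma family, Cacng1, the gamma subunit of the muscle channel, read 8.16, 8.36, 8.10 and 8.23 in EOM_fiber and 8.61, 8.87, 9.26 and 9.16 in TA_fiber, without overlap. It was lower in EOM fibre by -0.77 ± 0.20 (adjusted p = 0.0196), a call lost on leaving out any of EOM_fiber 27, EOM_fiber 29, TA_fiber 27 (adjusted p 0.0572 to 0.0788). At the junctions the difference was -0.62 and missed the threshold (adjusted p = 0.0501), and it passed without EOM_synapse 29 (0.0408). Cacng6, a gamma subunit also found in muscle, was lower in EOM fibre by -1.12 ± 0.34 (adjusted p = 0.0416), near the floor of the scale. That call was lost on leaving out any of EOM_fiber 15, EOM_fiber 27, EOM_fiber 29, TA_fiber 25, TA_fiber 27, TA_fiber 29 (adjusted p 0.053 to 0.133) and without the rat term (0.109). The Cacng6 call was also lost with a pseudocount of 1 (-2.05, adjusted p = 0.0737) and of 64 (-0.50, adjusted p = 0.0637). With no filter (0.0618) and with a mean-variance trend (0.082) it did not pass either. Cacna1a and Cacna1h, pore-forming subunits of P/Q-type and T-type channels, Cacnb2, Cacnb3 and Cacng2 passed in no comparison. The other 7 pore-forming genes lay below the filter, 2 of them (Cacna1f and Cacna1i) above the median on 0 arrays.

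**Figure D3:**
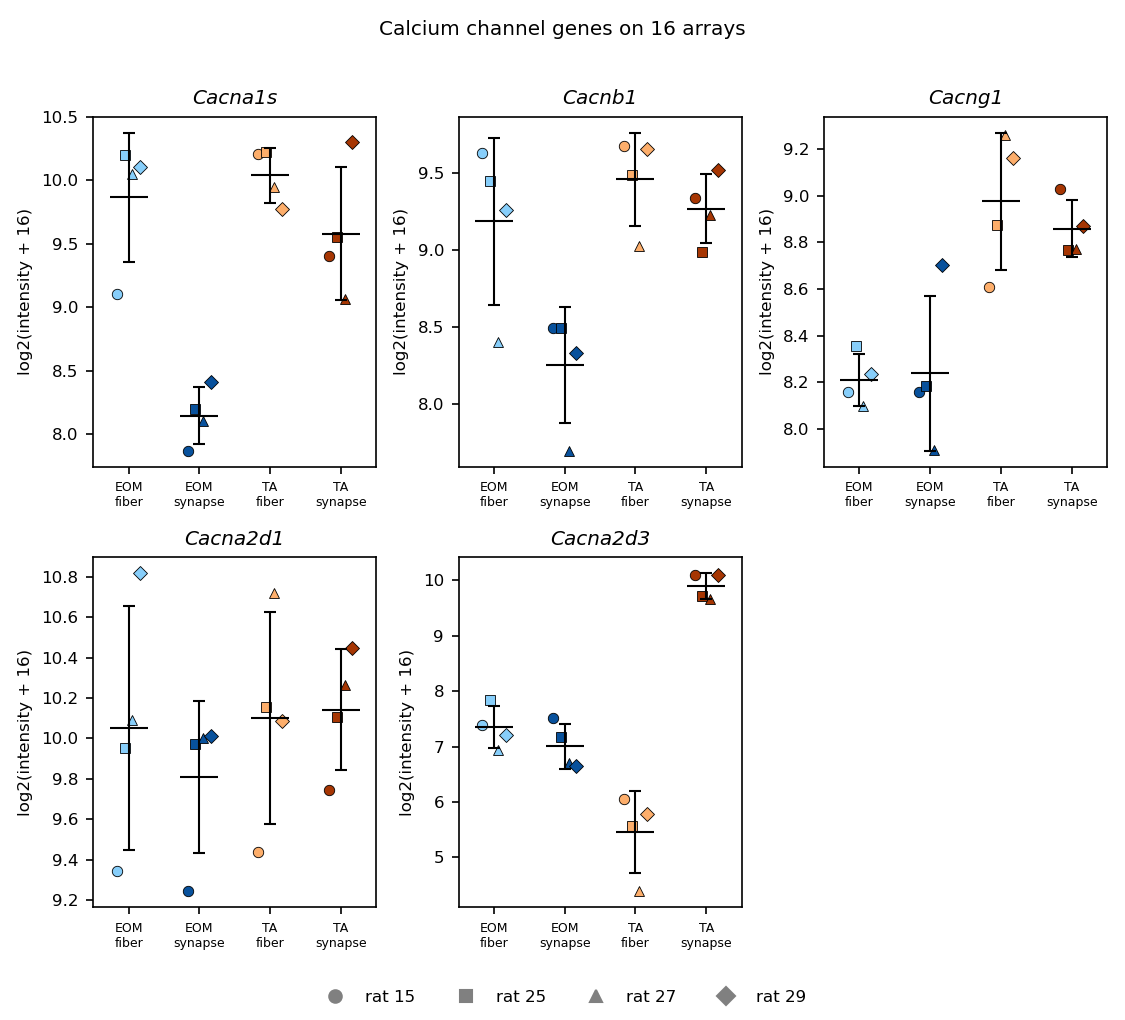
Levels of 5 calcium channel genes as log2(intensity + 16) on the 16 arrays, by group, with the mean and SD (n = 4) as black bars and a symbol for each rat. Each panel has its own y axis. Cacna1s is lowest in EOM_synapse at 7.87 to 8.41, Cacna2d1 overlaps in all groups, and Cacna2d3 runs from 9.66 to 10.10 in TA_synapse.

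Kv channels open on depolarisation and end the action potential. Of 20 pore-forming and modifier genes of this class, 8 were tested. Kcna2 and Kcna1, known from the axon membrane beside nodes of Ranvier, were higher at the EOM junction, and Kcnc4, a fast Kv channel of muscle, was lower there. Kcna2 read 4.79, 5.69, 6.06 and 4.83 in EOM_fiber and 7.37, 7.08, 8.09 and 7.90 in EOM_synapse, and 5.48, 5.66, 5.12 and 4.46 in TA_fiber and 6.60, 6.39, 6.16 and 6.87 in TA_synapse. Junction arrays lay above fibre arrays in both muscles. The differences were 2.27 ± 0.35 in EOM (4.82-fold, adjusted p = 0.000983) and 1.32 ± 0.35 in TA (adjusted p = 0.0259). The TA call was lost on leaving out any of TA_fiber 27, TA_fiber 29, TA_synapse 15, TA_synapse 25, TA_synapse 29 (adjusted p 0.0532 to 0.0967). EOM_synapse exceeded TA_synapse by 1.11 ± 0.35 (adjusted p = 0.0441), lost on leaving out any of EOM_synapse 15, EOM_synapse 27, EOM_synapse 29, TA_synapse 15, TA_synapse 25, TA_synapse 27 (0.0663 to 0.145). A second Kcna2 probe set, above the median on 6 arrays, gave 0.10 in EOM and -0.53 in TA, so the probe sets disagreed.

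Kcna1 was dim throughout, and read 4.26, 4.59, 5.16 and 4.33 in EOM_fiber and 5.78, 6.28, 6.83 and 6.38 in EOM_synapse. In TA_fiber it read 4.49, 4.60, 4.62 and 4.34 and in TA_synapse 6.14, 5.40, 4.66 and 6.05. Junction lay above fibre without overlap in both, in TA only narrowly (4.66 against 4.62) and near the floor of the scale. The difference was 1.73 ± 0.34 in EOM (adjusted p = 0.00514) and 1.05 in TA (adjusted p = 0.065), and the latter passed without TA_synapse 27 (adjusted p = 0.00282) and without the rat term (0.0434). The Schwann cell and junctional nucleus genes that rose at both junctions moved with Kcna1 and Kcna2. Nefm and Gap43 moved with the Kcna2 difference between the junctions. At the EOM junction, where Kcna1 and Kcna2 rose, neither axon gene passed. Nefm means were 7.26 in EOM_fiber and 6.81 in EOM_synapse, and Gap43 means 6.52 and 6.95. The part of these marker genes in the Kcna1 and Kcna2 results was not tested.

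Kcnc4 read 9.62, 9.83, 9.58 and 10.00 in EOM_fiber and 7.94, 7.77, 8.01 and 8.60 in EOM_synapse. In TA_fiber it read 8.77, 9.56, 10.15 and 9.66 and in TA_synapse 8.85, 10.02, 9.36 and 8.89. As with Cacna1s, the 4 EOM_synapse arrays lay below all 12 others. The junction difference was -1.68 ± 0.29 in EOM (adjusted p = 0.00216) and -0.25 ± 0.29 in TA (adjusted p = 0.658, 2 of 4 rats). Between junctions it was -1.20 ± 0.29 (adjusted p = 0.0113), lost without EOM_synapse 25 (adjusted p = 0.0528). The difference between the muscles was -1.42 ± 0.40 (adjusted p = 0.142) and passed with a pseudocount of 64 or a mean-variance trend (adjusted p = 0.0373 and 0.0339). A second Kcnc4 probe set, above the median on 0 arrays, gave 0.38 at the EOM junction and 0.14 between the junctions.

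Kcna5, a delayed rectifier of heart, vessel and muscle, was highest in TA_fiber, at 7.64, 7.76, 7.78 and 8.41, and lay between 6.40 and 7.43 on the other 12 arrays. EOM fibre was lower by -1.04 ± 0.28 (adjusted p = 0.0233), lost on leaving out any of EOM_fiber 15, EOM_fiber 27, TA_fiber 29 (adjusted p 0.0742 to 0.086). The TA junction was lower by -1.04 ± 0.28 (adjusted p = 0.032), lost on leaving out any of TA_fiber 15, TA_fiber 25, TA_fiber 29, TA_synapse 25, TA_synapse 29 (0.0582 to 0.112). Both comparisons share the TA_fiber arrays. The modifier subunits Kcns3 and Kcng2, silent on their own, were higher in EOM fibre. Kcns3 differed by 1.29 ± 0.35 (adjusted p = 0.0213), lost on leaving out any of EOM_fiber 27, EOM_fiber 29, TA_fiber 15, TA_fiber 29 (0.066 to 0.0752). Kcng2 differed by 1.23 ± 0.35 (adjusted p = 0.0283, 3 of 4 rats), lost on leaving out any of EOM_fiber 15, EOM_fiber 25, EOM_fiber 29, TA_fiber 15, TA_fiber 29 (0.0627 to 0.103) and without the rat term (0.064). The Kcng2 call was also lost on the 8 fibre arrays alone (0.126) and with a pseudocount of 1 (2.15, adjusted p = 0.0631). With a pseudocount of 64 the difference was 0.60. Other Kcng2 probe sets, above the median on 1 and 0 arrays, gave 0.79 and 0.16. Kcnd1 and Kcnd2 passed nowhere, and 7 of the 20 genes lay above the median on 0 arrays.

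Among accessory potassium channel subunits (6 of 11 tested), Kcnip3 stood out at the EOM junction. Kcnip3 is a calcium-binding protein that associates with Kv4 channels and is also known as the transcriptional repressor DREAM. It read 8.92, 9.04, 8.73 and 8.03 in EOM_synapse. Elsewhere it read 5.11, 4.56, 4.50 and 5.99 in EOM_fiber, 5.32, 4.31, 5.56 and 6.05 in TA_fiber and 5.36, 5.83, 6.11 and 4.44 in TA_synapse. EOM_synapse lay above the 12 other arrays, which overlapped. The chosen probe set exceeded the median on 7 arrays, with all 4 EOM_synapse arrays among them. Without that group it would not have been tested. The junction difference was 3.64 ± 0.46 in EOM (12.5-fold, adjusted p = 0.000215) and 0.13 ± 0.46 in TA (adjusted p = 0.912). EOM_synapse exceeded TA_synapse by 3.25 ± 0.46 (adjusted p = 0.000306). The difference between the muscles was 3.51 ± 0.65 (adjusted p = 0.0196), lost on leaving out any of EOM_fiber 25, EOM_synapse 15, EOM_synapse 25, EOM_synapse 27, TA_synapse 15 (adjusted p 0.05 to 0.0581) and with a pseudocount of 1 (0.175). That call was also lost without rat 15, 25 or 27. A second, dimmer Kcnip3 probe set gave 1.45 in EOM and 0.17 in TA. Kcnd1 and Kcnd2, Kv4 channels that Kcnip3 can bind, did not pass at the EOM junction (0.04 and -0.66). Kcnd3, another Kv4 gene, lay below the filter and was not tested. Its chosen probe set, above the median on 0 arrays, gave 0.41 at the EOM junction. Other Kcnd3 probe sets, above the median on 1 and 4 arrays, gave 1.72 and -0.33, so the probe sets disagreed.

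Kcnab1, a cytoplasmic beta subunit of Kv1 channels, was lower in EOM than TA fibre by -0.77 ± 0.23 (adjusted p = 0.0387), at 7.80, 7.65, 7.25 and 7.39 against 8.14, 7.96, 8.72 and 8.37. The groups did not overlap. The call was lost without each of the EOM_fiber arrays, TA_fiber 27 or TA_fiber 29 (adjusted p 0.0509 to 0.134), and a second Kcnab1 probe set, above the median on 1 array, gave -0.18. The Kcnab1 call was also lost on the values as deposited (0.0605) and on median-centred values (0.0743). With no filter (0.0638) and on the 8 fibre arrays alone (0.161) it did not pass either. Kcnq5, of the slow M-current family, was higher at the EOM junction by 1.02 ± 0.25 (adjusted p = 0.0204), at 9.03, 9.99, 9.16 and 9.22 against 8.67, 8.56, 7.73 and 8.34 in fibre. That call was lost on leaving out any of EOM_fiber 25, EOM_fiber 27, EOM_synapse 25, EOM_synapse 27, EOM_synapse 29 (0.0557 to 0.0803), and its other probe sets gave 0.12 and 0.34. Of the 11 Kcnq and Kcnh genes, the other 4 tested passed nowhere.

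Inward rectifiers hold the resting potential, and 9 of 15 were tested. Kcnj12, a strong inward rectifier of heart and skeletal muscle, was higher at both junctions and higher at the TA than at the EOM junction. It read 5.42, 6.36, 5.91 and 5.54 in EOM_fiber, 7.59, 7.51, 7.02 and 7.51 in EOM_synapse, 7.04, 5.47, 7.01 and 7.03 in TA_fiber and 9.84, 9.38, 8.28 and 9.00 in TA_synapse. TA_synapse lay above all other arrays, and EOM_synapse overlapped TA_fiber. The junction difference was 2.49 ± 0.39 in TA (5.62-fold, adjusted p = 0.000863) and 1.60 ± 0.39 in EOM (adjusted p = 0.0185). The EOM call was lost on leaving out any of EOM_fiber 15, EOM_fiber 29, EOM_synapse 15, EOM_synapse 25, EOM_synapse 29 (adjusted p 0.0535 to 0.0735). EOM_synapse was below TA_synapse by -1.72 ± 0.39 (adjusted p = 0.00785), lost without rat 15 (0.0563). The fibre difference of -0.83 ± 0.39 did not pass (adjusted p = 0.17), and did without TA_fiber 25 (adjusted p = 0.0125), the array at 5.47. The muscles' junction differences differed by -0.89 ± 0.55 (adjusted p = 0.617).

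Kcnj11 and Kcnj8 form the pore of ATP-sensitive potassium channels, the first in muscle fibres and the second in vessel walls. Kcnj11 read 8.91, 9.09, 8.84 and 8.74 in EOM_synapse and 10.06, 10.06, 9.62 and 9.45 in TA_synapse, without overlap. EOM was lower there by -0.90 ± 0.24 (adjusted p = 0.0223), lost on leaving out any of EOM_synapse 15, EOM_synapse 25, TA_synapse 15, TA_synapse 25, TA_synapse 29 (adjusted p 0.0505 to 0.0807) and without the rat term (0.0515). Of its other probe sets, 1 gave -0.76 between the junctions and the other, above the median on 12 arrays, 0.03, so the probe sets disagreed. Its EOM junction difference of -0.74 did not pass (adjusted p = 0.0719) and did without EOM_fiber 25 (0.0215). Kcnj8 read 7.14, 7.18, 7.61 and 7.29 in EOM_fiber and 6.51, 4.78, 6.88 and 5.44 in TA_fiber, and was higher in EOM by 1.40 ± 0.33 (adjusted p = 0.0119). That call was lost without rat 25 or 29 (0.0664 and 0.0624) and with a pseudocount of 1 (0.0569). Kcnj2, the best-known inward rectifier of muscle, lay below the filter and exceeded the median on 2 arrays.

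Calcium-activated channels were led by Kcnma1, the large-conductance BK channel, which opens with calcium and voltage and is known from smooth muscle, neurons and muscle fibres. It read 11.84, 12.13, 12.76 and 12.59 in EOM_fiber and 11.99, 11.87, 12.06 and 11.70 in EOM_synapse. In TA_fiber it read 9.54, 10.00, 10.16 and 9.58 and in TA_synapse 9.19, 9.77, 9.44 and 8.46. All 8 EOM arrays lay above all 8 TA arrays, and junction and fibre overlapped within each muscle. EOM exceeded TA by 2.51 ± 0.25 in fibre (5.70-fold, adjusted p = 2.43e-05) and 2.69 ± 0.25 at the junction (6.47-fold, adjusted p = 9.06e-06), and both held under all alternatives run. A second Kcnma1 probe set gave 1.74 and 1.57, and another, above the median on 2 arrays, -0.21 and 0.29. Of 6 tested smooth muscle and pericyte genes, 0 passed between EOM and TA fibre, where their summed intensity ran from 1451 to 2938 in EOM and 1970 to 3182 in TA, and between the junctions Acta2 (-0.95) and Des (-1.14) were lower in EOM and 4 did not pass (Tagln 0.89, Pdgfrb 0.47, Rgs5 0.38 and Myh11 -0.47), with a list median of -0.05. Their part in the Kcnma1 result was not tested. Kcnn3, an SK channel that appears in denervated muscle, passed in no comparison, at -0.81 in EOM and -0.90 in TA (adjusted p = 0.0957 and 0.0653), and the TA difference passed without TA_fiber 29 or TA_synapse 29 (0.0448 and 0.00943).

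Of the 2-pore-domain channels, which carry leak current, 4 of 11 were tested. Kcnk2 was dim and above the median on 4 arrays in all. It read 6.25, 6.12, 4.76 and 5.86 in TA_synapse against 4.12, 4.10, 4.34 and 4.51 in TA_fiber, higher at the junction by 1.48 ± 0.28 (adjusted p = 0.00386), and lost without rat 15 (0.0538). In EOM_fiber it read 5.74, 5.95, 4.60 and 4.90, above TA_fiber by 1.03 ± 0.28 (adjusted p = 0.0237), a call lost on leaving out any of EOM_fiber 15, EOM_fiber 25, TA_fiber 15, TA_fiber 25 (adjusted p 0.0691 to 0.0896). That call was also lost without the rat term (0.0684), on median-centred values (0.0561), with a mean-variance trend (0.109) and with a pseudocount of 64 (0.109), and the difference ran from 0.40 with a pseudocount of 64 to 2.56 with 1. At the TA junction the difference ran from 0.62 to 3.26 in the same way. A second Kcnk2 probe set, above the median on 1 array, gave 0.24 between fibres and -0.30 at the TA junction. Kcnk6 was 1.40 ± 0.53 higher at the EOM and 1.14 ± 0.53 at the TA junction and did not pass (adjusted p = 0.112 and 0.209), with EOM_fiber from 4.28 to 6.89. The EOM difference passed without EOM_fiber 27 (adjusted p = 0.0446).

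**Figure D4:**
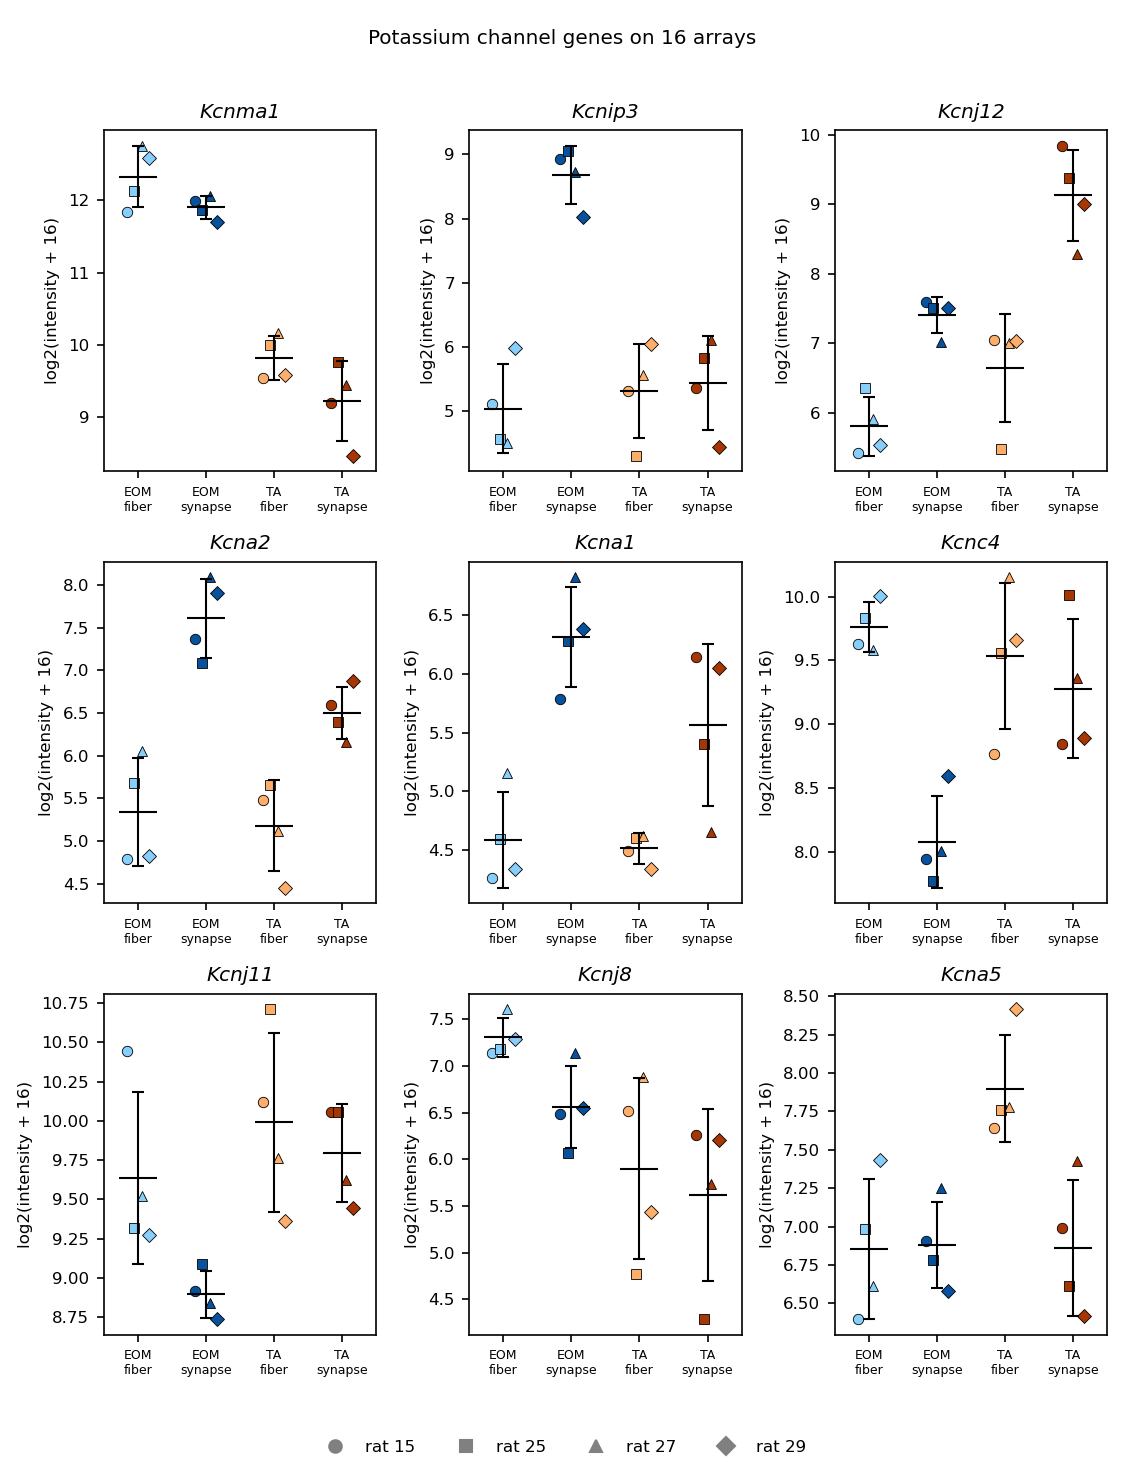
Levels of 9 potassium channel genes as log2(intensity + 16) on the 16 arrays, by group, with the mean and SD (n = 4) as black bars and a symbol for each rat. Each panel has its own y axis. Kcnma1 separates the muscles, Kcnip3 stands out at 8.03 to 9.04 in EOM_synapse, Kcnj12 at 8.28 to 9.84 in TA_synapse, and Kcnc4 is lowest in EOM_synapse at 7.77 to 8.60.

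Between the muscles, 13 of 56 tested members passed in fibre (9 higher and 4 lower in EOM) and 12 at the junction (5 higher, 7 lower). Over all genes 15.6% passed in fibre (8.42% higher, 7.17% lower) and 16.4% at the junction (7.83% higher, 8.61% lower). Which direction held more calls turned with the scaling. On median-centred values 561 of 1246 calls were higher in fibre and 598 of 1140 at the junction, and on the values as deposited 1147 of 1900 and 937 of 1772. Only Kcnma1 and Scn7a passed as higher in EOM in both, and 0 as lower in both. The members' median difference was 0.13 in fibre and 0.01 at the junction, beside 0.03 and 0.01 over all genes. The fibre count rested on small margins, with 6 to 12 members passing when 1 array or rat was left out and 5 on the 8 fibre arrays alone. In fibre the muscle channel's own subunits Cacna1s (-0.18 ± 0.26, adjusted p = 0.703), Cacna2d1 (-0.05 ± 0.21, adjusted p = 0.906) and Cacnb1 (-0.27) did not pass. At the junction Cacna1s, Cacnb1, Kcnc4 and Kcnj11 were all lower in EOM, as were the muscle fibre genes Actn3 (-2.17 ± 0.20) and Acta1 (-1.11 ± 0.18). Of the 6 muscle fibre genes, 2 passed as lower there, and their summed intensity ran from 96757 to 124243 in EOM_synapse and 151682 to 189128 in TA_synapse. Of the other 4, Ckm means were 14.9 in EOM_synapse and 15.3 in TA_synapse, and Tnnt3 means 13.9 and 14.4. Those of Myh4 were 14.8 and 14.9, and of Pvalb 11.9 and 11.8. Actn3 and Acta1 also passed as lower in EOM fibre (adjusted p = 0.00453 and 0.0182). Both calls were lost on the 8 fibre arrays alone (adjusted p = 0.08 and 0.138), and the Acta1 call under other alternatives too. Pvalb was higher in EOM fibre (1.07 ± 0.21), and Kcnc4 (0.23) and Kcnj11 (-0.35) did not pass there. The part of fibre content in these results was not tested.

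**Figure D5:**
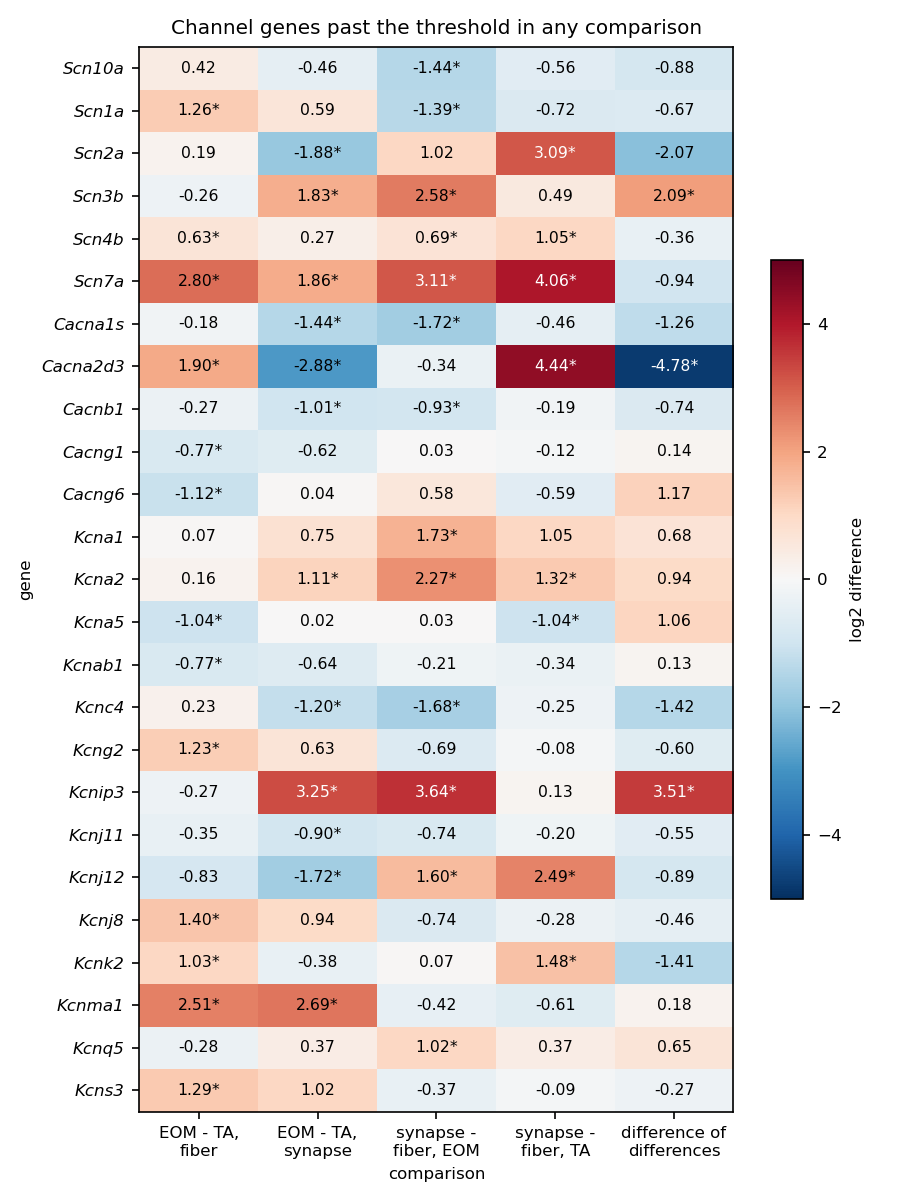
Log2 differences of the 25 members that passed in at least 1 comparison (rows) in the 5 comparisons (columns), with an asterisk at adjusted p under 0.05. Red is higher in the first-named group, and the last column is the EOM junction difference minus the TA one. Kcnma1 and Scn7a are red in both EOM against TA columns, and Cacna2d3 is 4.44 in TA and -0.34 in EOM in the junction columns.

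Of 40 other excitability genes, 25 were tested. At the EOM junction 4 were higher and 4 lower, at the TA junction 4 were higher and 0 lower, in EOM against TA fibre 2 were higher, and between the junctions 5 were higher and 3 lower in EOM. These are 32% of the 25 at the EOM junction, 16% at the TA junction, 8% between fibres and 32% between junctions, beside 10.2%, 10.3%, 15.6% and 16.4% of all genes. Nalcn, the sodium leak channel, was higher at both junctions, by 3.20 ± 0.37 in EOM (adjusted p = 0.000108) and 2.08 ± 0.37 in TA (adjusted p = 0.00231). Ank3, the ankyrin that anchors sodium channels, was higher by 1.38 ± 0.19 and 1.06 ± 0.19 (adjusted p = 0.000473 and 0.00254), the latter lost with its most variable probe set (0.36, adjusted p = 0.716). Dpp6, a partner of Kv4 channels, was higher by 2.31 ± 0.42 and 2.01 ± 0.42 (adjusted p = 0.00368 and 0.00779), the first lost without rat 15 (0.0588) and the second without rat 15 or 29 (0.072 and 0.0741). Fgf12, an intracellular modulator of sodium channels, was higher at the EOM junction by 2.70 ± 0.36 (adjusted p = 0.00039), and its difference between the muscles was 3.11 ± 0.51 (adjusted p = 0.0104), lost with a pseudocount of 1 (0.0949) and without rat 15, 25 or 27 (0.0914, 0.106 and 0.13). Fgf13, its relative, was higher at the TA junction by 0.87 ± 0.21 (adjusted p = 0.015), lost without TA_fiber 29 or TA_synapse 27 (0.0517 and 0.0557).

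Of the partner genes, 4 passed as lower at the EOM junction. Jph2, which joins the membranes, differed by -1.35 ± 0.26 (adjusted p = 0.00458), and Jsrp1, a triad scaffold, by -1.02 ± 0.24 (adjusted p = 0.0146), the latter lost without EOM_synapse 15 (adjusted p = 0.0547). Jph1 differed by -0.92 ± 0.27 (adjusted p = 0.0425) and the release channel Ryr1 by -0.76 ± 0.21 (adjusted p = 0.0334). The Jph1 call was lost on leaving out any of 6 arrays (EOM_fiber 27 and 29 and each EOM_synapse array, adjusted p 0.0633 to 0.138), as was the Ryr1 call (each EOM_fiber array and EOM_synapse 15 and 25, 0.0575 to 0.123). On median-centred values the Jsrp1, Jph1 and Ryr1 calls were lost (adjusted p = 0.129, 0.159 and 0.092), and the Jph2 call was kept. Stac3, needed for Cacna1s to reach the membrane, did not pass there (-0.57, adjusted p = 0.0846). Of 6 muscle fibre genes, Actn3 (-1.03 ± 0.20, adjusted p = 0.00556) and Pvalb (-0.83 ± 0.21, adjusted p = 0.0214) were lower at the same junction and 0 were higher, with a summed intensity of 119586 to 153233 in EOM_fiber and 96757 to 124243 in EOM_synapse. Their part in the falls of these genes, of Cacna1s, of Cacnb1 and of Kcnc4 at the EOM junction was not tested. Between junctions Jph2, Jsrp1 and Ryr1 were lower in EOM, by -1.56 ± 0.26, -1.33 ± 0.24 and -0.84 ± 0.21 (adjusted p = 0.00101, 0.00176 and 0.0137). The Ryr1 value was lost on leaving out any of EOM_synapse 15, EOM_synapse 25, TA_synapse 15 (0.0517 to 0.0577). Sptbn1, a spectrin of the membrane skeleton, was higher in EOM in fibre (1.20 ± 0.20) and at the junction (1.32 ± 0.20), and Stac3 in fibre (0.95 ± 0.20, and 0.57 with adjusted p = 0.126 on median-centred values). The Sptbn1 junction value was 0.45 (adjusted p = 0.341) with its most variable probe set.

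Of the 56 tested members, 31 passed in no comparison. Their differences between 2 groups ran from -1.05 (Kcnd2, TA junction) to 1.40 (Kcnk6, EOM junction). Of the 55 members not tested, 19 exceeded the array median on 0 arrays and 36 on 1 to 3, and for these genes the arrays give no more than a dim probe set. Of all 111, 14 exceeded it on all 16 arrays. Several probe sets (up to 6) covered 42 of the members, and their values are given above for some of these genes only.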

How the data were processed

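RNA from laser-captured junctions and non-synaptic muscle was amplified in 2 rounds of in vitro transcription and hybridised to Affymetrix arrays, per the labels' protocols. The authors deposited 1 intensity per probe set and array, and each array's 2% trimmed mean lay between 147.9 and 149.3. How probe readings were summarised into them: not given in the sources used here. Of 31099 rows, 57 controls were dropped, 20826 probe sets had 1 gene symbol in the platform annotation, 436 had several and 9780 were not listed.

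The deposited intensities were converted to log2(intensity + 16), quantile normalised and fitted over all 16 arrays in limma 3.58.1 (R 4.3.3). The model held a mean for each of the 4 groups and a term for the rat, leaving 9 residual degrees of freedom. Genes were tested where the chosen probe set exceeded the array median on at least 4 arrays, and p-values were adjusted by Benjamini-Hochberg over 10405 genes. The numbers 15, 25, 27 and 29 in the titles were read as the 4 rats. Over 24 pairs of arrays of the same rat, deviations from the group means correlated by 0.113 on average (-0.066 to 0.247). For each comparison up to 8 members that passed were named in each direction, by size of difference, with main muscle channel genes from a list whatever their values and up to 4 partner genes. Other genes named, among them Scn3a, Scn2b, Kcnd1, Kcnd2, Kcnd3 and further partner genes, were chosen after their values were seen. The members and lists were chosen with earlier results of these data known. The fits were also run on simulated data with independent noise and no rat effect, and the outcome is not reported here. Alternatives covered the rat term, scaling, pseudocount, filter, probe set choice, variance trend, the arrays used and each array or rat left out. Array number limits the precision. Some listed genes are not reported here.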

Additional observations from a re-analysis of the deposited data

Results flagged for a closer look

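In 8 of 112 groups of 4 arrays examined (28 members), 1 array lay far from the other 3 by Dixon's criterion, where chance alone gives about 5%. Cacna1s read 9.11 in EOM_fiber 15, below 10.05 to 10.20 on the others, and Cacna2d1 read 9.24 in EOM_synapse 15, below 9.97 to 10.01. Cacng6 read 5.78 in EOM_fiber 25, above 4.40 to 4.58. Kcnj12 read 7.02 in EOM_synapse 27, below 7.51 to 7.59, and 5.47 in TA_fiber 25, below 7.01 to 7.04. Kcnk6 read 6.16 in EOM_synapse 25, below 6.98 to 7.09, Kcns3 read 4.96 in TA_synapse 27, below 5.93 to 6.06, and Scn1a read 4.17 in TA_fiber 25, below 5.35 to 5.42.

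The junction difference differed between the muscles, by the test of that difference in limma, for Cacna2d3 (-4.78, EOM minus TA), Kcnip3 (3.51) and Scn3b (2.09). The Kcnip3 and Scn3b calls were lost under some alternatives, as given above.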

How the results depend on the processing

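Of 49 member results that passed, 21 passed under every alternative run on them (22 or 23 for a comparison of groups, 29 or 30 for the difference between the muscles), 28 were lost under at least 1, 31 passed without any single array, and 0 changed sign. Leaving out 1 array or rat, the members passing ran from 6 to 12 between the muscles in fibre, 7 to 12 at the EOM junction and 1 to 5 for the difference between the muscles. On the 8 arrays of a comparison alone, 5 passed between fibres and 5 at the TA junction. With a pseudocount of 64, and with a mean-variance trend, 5 passed for the difference between the muscles. Without the replicate block for the rat, the counts were 9 between fibres, 12 between junctions, 12 at the EOM junction, 9 at the TA junction and 3 for the difference between the muscles. Only results that did not pass changed sign. Scn4b between junctions was -0.13 on the values as deposited and -0.12 median centred. Leaving out 1 array or rat, the fibre differences ran from -0.40 to 0.13 for Cacna1s and -0.31 to 0.14 for Cacna2d1, and the TA junction difference of Kcnip3 from -0.34 to 0.70. The cause was not tested. Probe sets near the background give differences that shrink with the pseudocount.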
